A study of Homo sapiens with 63 samples.

Results

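The translation elongation factor mRNAs examined here are those of EEF1A1, EEF1B2, EEF1D, EEF1G and EEF2, 5 genes taken by symbol from a table of 11074 genes. They were followed over fractions 3 to 22 of 3 polysome gradients made from HEK293 cells, an established human embryonic kidney line. The serum starved cells were kept for 2 h without fetal bovine serum. The amino acid starved cells were kept for 1 h in EBSS, a salt solution that lacks amino acids, with MEM vitamins and 10% serum. The log phase cells grew in DMEM with 10% serum. All cultures received cycloheximide, a drug that holds ribosomes on mRNA, for 10 min before lysis, and RNA with a poly(A) tail was sequenced from each fraction. There was 1 gradient per condition, so neighbouring fractions are positions in a single gradient and not replicates. No difference below has a replicate check or a p-value. Which fractions held the heavier ribosome complexes is not stated, and only the numbering is used here to describe direction.

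Translation elongation adds amino acids to the growing chain. EEF1A1 encodes eEF1A, the GTPase that delivers aminoacyl-tRNA to the ribosome. EEF1B2, EEF1D and EEF1G encode subunits of eEF1B, the complex that exchanges GDP for GTP on eEF1A: EEF1B2 and EEF1D carry the exchange activity, and EEF1G is a scaffold. EEF2 encodes eEF2, the GTPase that moves the ribosome along the mRNA by a codon. Several of these transcripts are known TOP mRNAs: they begin with a C followed by a run of pyrimidines, the 5′ terminal oligopyrimidine tract, through which translation depends on the mTORC1 kinase and the RNA-binding protein LARP1. Loss of amino acids or growth factors lowers mTORC1 activity, and TOP mRNAs are known to leave polysomes under such conditions.

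The first bases of the genes are shown because the TOP tract lies there. RefSeq windows of GRCh38.p14 reaching from 250 bases before to 50 bases after an annotated start were matched for EEF1A1, EEF1B2 (2 starts), EEF1G and EEF2. No start window was used for EEF1D, so whether it holds a tract was not examined. Each line gives 30 bases, of which the first 10 precede the annotated start. Capitals mark a C followed by at least 4 pyrimidines, with the C within 10 bases of the start, searched on the strand of the gene only. Where several runs in a window met this, only the longest is marked, so a shorter run can stand unmarked.
EEF1A1, chr6:73521013-73521042, minus strand: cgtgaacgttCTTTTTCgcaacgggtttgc
EEF2, chr19:3985444-3985473, minus strand: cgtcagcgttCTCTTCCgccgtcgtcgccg
EEF1B2 second start, chr2:206159885-206159914, plus strand: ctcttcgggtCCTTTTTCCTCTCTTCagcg
EEF1B2 first start, chr2:206159599-206159628, plus strand: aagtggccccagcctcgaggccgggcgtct
EEF1G, chr11:62573872-62573901, minus strand: cgggcggcttactttgcggcagcgccgaga
The tract began exactly at the annotated start in EEF1A1 and EEF2, where it spanned 7 bases, and at the second start of EEF1B2, where it spanned 16 bases. The first start of EEF1B2 and the start of EEF1G held no match. Such a run is common: 33.5% of all 35116 windows and 41.8% of the 8699 tested genes with a window held one. It was found in 35 of 38 large ribosomal subunit protein genes, 23 of 25 small subunit genes and 17 of 18 other listed TOP genes, against 2 of 10 other elongation genes. A match describes the letters near an annotated start and does not show where transcription began in these cells.

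The deposited values are named TPM, a length-normalised unit, but the gene totals of the 60 fractions ran between 36830 and 66981627, so each fraction carries a further scale whose origin is unknown. They are called signal below. Gene signal summed over fractions was 163126108 in the serum starved gradient and 183267510 in the amino acid starved gradient, against 390571674 in the log phase gradient. The lowest fraction total was in fraction 6 of log phase, and all fractions listed at least 9395 genes above 0. Library depths are unknown, so no counting error could be attached. Of 7 genes listed as markers of HEK293 cells, 6 were listed (PAX2 was not), and of 12 markers of blood, liver, endothelial, connective tissue, pancreatic and muscle cells, 0 were listed.

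The signal of all 5 mRNAs peaked in fraction 9 or 10 in both starved gradients, against fraction 18 or 20 in log phase. The gene signal as a whole also peaked in fraction 9 without serum (16.4% of the gradient) and without amino acids (16.3%), against fraction 18 in log phase (17.1%), and these peaks carry those fraction totals. The signal of EEF1A1 (chromosome 6, 73515750 to 73521032) ran from 255 in fraction 3 to 1216929 in fraction 9 in the serum starved gradient, with a median of 126687. Without amino acids it ran from 287 to 1188470, again in fractions 3 and 9, with a median of 121034, and in log phase from 153 in fraction 3 to 1445940 in fraction 20, with a median of 108873. Medians over fractions were thus close between gradients while the peak lay 11 fractions lower in both starvations. These medians carry the unknown scale of the fractions and do not show an equal amount of EEF1A1. Its mean signal was 228549 without serum and 252470 without amino acids, against 359091 in log phase.

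EEF1G (chromosome 11, 62559596 to 62573891) peaked in the same fractions as EEF1A1. Its highest signal was 283878 in fraction 9 without serum, 264181 in fraction 9 without amino acids and 261094 in fraction 20 in log phase. The guanine nucleotide exchange subunit EEF1D (chromosome 8, 143579728 to 143597415) had the lowest signal of the 5, with peaks of 15800 and 19042 in fraction 9 without serum and without amino acids, and of 37256 in fraction 20 in log phase. The other exchange subunit, EEF1B2 (chromosome 2, 206159609 to 206162928), peaked at 75039 in fraction 9 without serum, 99095 in fraction 10 without amino acids and 127222 in fraction 18 in log phase. EEF2 (chromosome 19, 3976056 to 3985463) peaked at 66344 in fraction 9 without serum, 66667 in fraction 10 without amino acids and 89387 in fraction 18 in log phase. No member peaked above fraction 10 in a starved gradient or below fraction 18 in log phase.

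**Figure D1:**
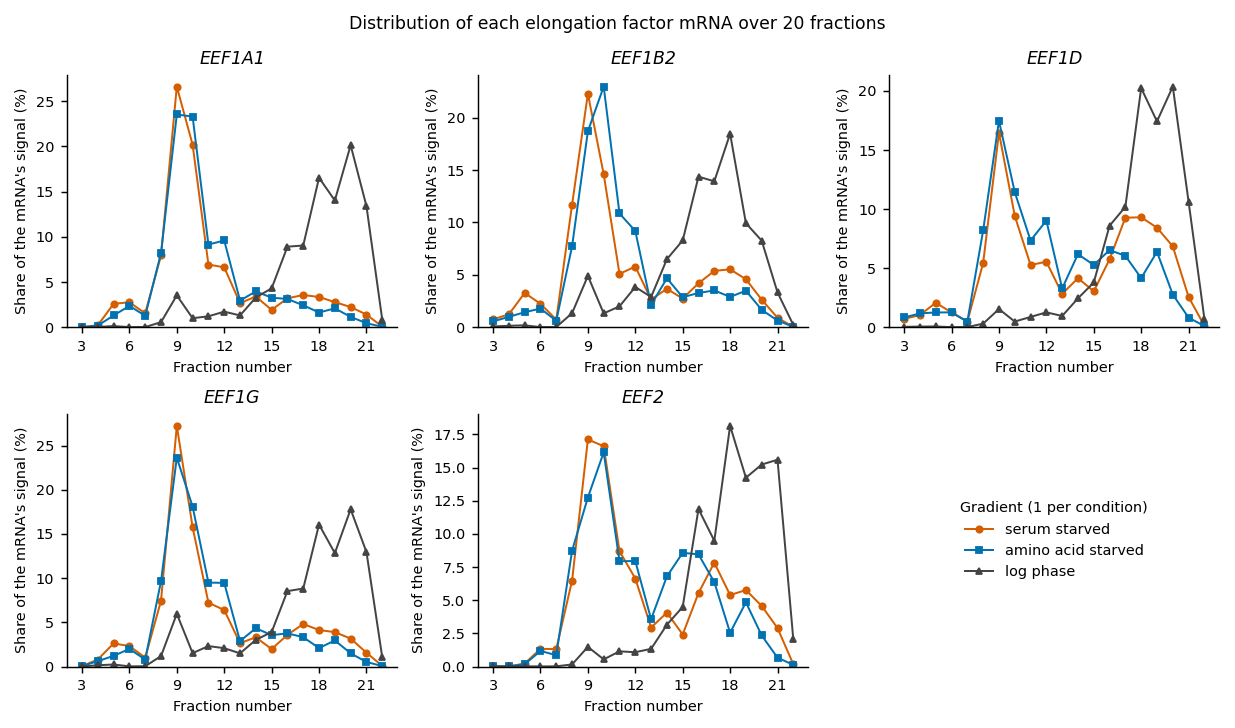
Share of each mRNA's summed signal (y axis, percent, starting at 0) in fractions 3 to 22 (x axis) of the serum starved, amino acid starved and log phase gradients, 1 point per fraction and 1 gradient per condition. The starved curves peak in fractions 9 or 10 and the log phase curves in fractions 18 or 20.

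The mRNAs differed in how much of their signal stayed at the high end. In fractions 18 to 22, EEF1D kept 27.3% of its signal without serum and 14.2% without amino acids, against 69.4% in log phase. EEF2 kept 18.8% and 10.5%, against 65.2% in log phase. EEF1A1 kept least, with 9.82% and 5.36%, against 64.9% in log phase. For EEF1B2 the shares were 13.7% without serum and 8.72% without amino acids, against 40.2% in log phase, where another 46.0% lay in fractions 13 to 17. EEF1G held 12.8% and 7.12%, against 60.7% in log phase. Of all gene signal, fractions 18 to 22 in turn held 8.04%, 7.10%, 4.89%, 2.27% and 0.110% without serum. They held 4.30%, 6.02%, 3.04%, 1.06% and 0.135% without amino acids, against 17.1%, 10.7%, 10.1%, 5.40% and 0.395% in log phase. With every fraction given the same total, the members held 13.0% to 29.7% there without serum and 11.1% to 22.2% without amino acids. In log phase they then held 18.8% to 63.9%. Fractions 8 to 12 took up between 42.1% (EEF1D) and 68.3% (EEF1A1) of a member's signal without serum and between 53.5% (EEF1D and EEF2) and 73.8% (EEF1A1) without amino acids, against 4.41% (EEF2) to 13.4% (EEF1B2) in log phase. These shares carry the unknown scale of the fractions, and all gene signal differed too. Fractions 8 to 12 in turn held 8.10%, 16.4%, 10.3%, 4.82% and 6.11% of it without serum. They held 8.20%, 16.3%, 14.0%, 7.61% and 8.90% without amino acids, against 0.986%, 4.22%, 1.30%, 2.34% and 3.91% in log phase. With equal fraction totals they held 22.7% to 37.6% of a member without serum and 24.3% to 37.5% without amino acids. In log phase they then held 9.06% to 25.3%.

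Positions were summarised as the mean fraction number weighted by signal. The position of EEF1A1 was 11.13 without serum and 10.93 without amino acids, against 17.72 in log phase. EEF1G stood at 11.52 and 11.19, against 17.22 in log phase, and EEF1B2 at 11.52 and 11.31, against 16.18 in log phase. EEF2 stood at 12.81 and 12.58, against 17.99 in log phase. EEF1D stood at 13.49 without serum and 12.37 without amino acids, against 18.03 in log phase. The median of the 10889 genes tested was 15.62 without serum, 15.12 without amino acids and 16.94 in log phase. In the starved gradients EEF1A1, EEF1B2 and EEF1G lay near the low end of all genes: 0.854%, 1.59% and 1.55% of genes were lower without serum and 0.808%, 1.42% and 1.21% without amino acids. In log phase EEF1D and EEF2 lay above most genes, with 85.7% and 84.6% of genes lower, and EEF1B2 lay below most, with 27.5% lower. With equal fraction totals the share of genes lower than EEF1A1 was 1.91% without serum and 1.79% without amino acids, and EEF1B2 stood at 10.36 and 10.89, against 11.44 in log phase, where 11.3% of genes were lower. On that scale EEF1A1 stood at 10.80 and 10.75, against 14.71 in log phase, and EEF2 at 13.38 and 13.40, against 17.46. EEF1G stood at 11.15 and 11.20, against 12.92, and EEF1D at 12.89 and 12.11, against 15.44. The median gene stood at 15.91 and 16.01, against 14.22 in log phase.

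Positions computed from odd and from even fractions apart give a spread within a gradient. It was widest for EEF2 without amino acids, at 13.08 from odd and 12.15 from even fractions. Without serum EEF1G, at 11.27 from odd and 11.79 from even fractions, overlapped both EEF1A1 at 10.91 and 11.35 and EEF1B2 at 11.44 and 11.60, while EEF1A1 lay below EEF1B2. No order was seen between EEF1D and EEF2 without amino acids or in log phase. EEF1A1 without amino acids, at 10.89 and 10.97, lay below EEF1G at 11.22 and 11.17. Without serum EEF1D, at 13.22 and 13.78, lay above EEF2 at 12.96 and 12.66. EEF1B2 in log phase lay below the others by more than this spread, with 15.91 from odd and 16.41 from even fractions against 16.97 and 17.46 for EEF1G, the nearest member.

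**Figure D2:**
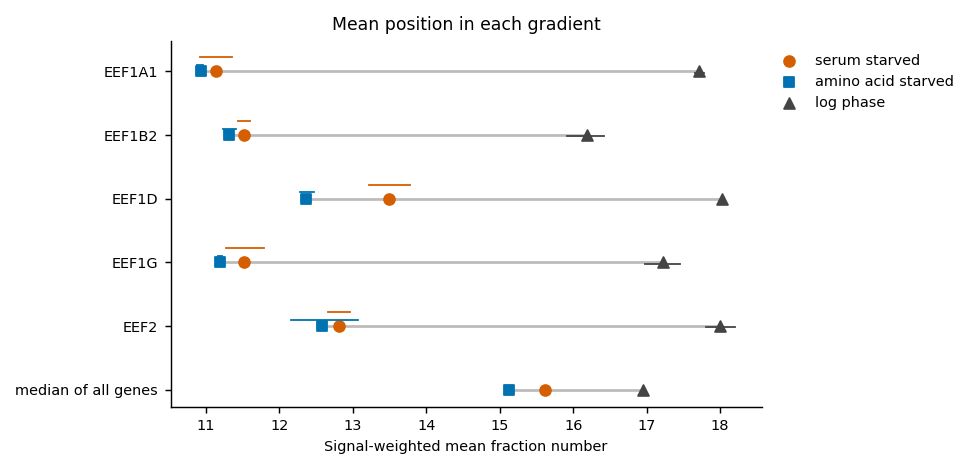
Signal-weighted mean fraction number (x axis) of the 5 mRNAs and of the median gene in the serum starved (circles), amino acid starved (squares) and log phase (triangles) gradients. Thin bars beside the symbols join the positions from odd and from even fractions, a spread within 1 gradient, and grey lines join the gradients. The distance between starved and log phase symbols is greater for each of the 5 mRNAs than for the median gene.

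The difference in position between 2 gradients, less the same difference for the median tested gene, is called a shift. Its size rule, which takes the place of a test, asked for at least 1 fraction and for at least 0.5 in the same direction from odd and from even fractions. After serum starvation all 5 members met the rule towards lower-numbered fractions, as did 9.86% of all tested genes. Without amino acids it was again 5 of 5, against 9.57% of all genes. Towards higher numbers it was 0 of 5 in both, against 5.7% and 6.84% of genes. The starved gradients share the log phase gradient, so these counts are not independent of each other.

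EEF1A1 had the lowest shift of the 5 in both starvations, at -5.23 without serum (odd -5.61, even -4.88) and -4.99 without amino acids (odd -5.29, even -4.70), with rank 2 among 10889 genes without serum and rank 3 without amino acids, counted from the lowest. EEF1G followed at -4.36 without serum (odd -4.58, even -4.12) and -4.23 without amino acids (odd -4.28, even -4.18), with ranks 10 and 15. EEF1D had -3.19 without serum (odd -3.68, even -2.70) and -3.86 without amino acids (odd -4.09, even -3.64). EEF1B2 had -3.31 (odd -3.35, even -3.27) and -3.07 (odd -3.03, even -3.07), and EEF2 had -3.83 (odd -4.11, even -3.59) and -3.62 (odd -3.64, even -3.54). With every fraction given the same total, the order changed: EEF2 came lowest at -5.62 without serum and -5.78 without amino acids, before EEF1A1 at -5.45 and -5.68, while EEF1B2 had the smallest shifts at -2.62 and -2.28. On that scale the median gene moved the other way, by 1.54 fractions up without serum and 1.72 without amino acids. Without centring, EEF1A1 and EEF2 differed from log phase by -3.91 and -4.08 fractions without serum on that scale, whereas EEF1B2 differed by -1.08 without serum and by -0.55 without amino acids, where it no longer met the rule. With positions from log2 signal, a summary that flattens abundant profiles, 0 of 5 met the rule in either starvation, and EEF1A1, EEF1B2 and EEF1G had shifts above 0.

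Abundance within a fraction, as parts per 1000000 of the fraction's gene signal (ppm), does not depend on the scale of the fraction. In fractions 18 to 22 EEF1A1 ran from 10966 to 17322 ppm without serum and from 9568 to 11525 without amino acids, against 17728 to 45609 in log phase. The ranges of the starved gradients lay wholly below that of log phase. In fractions 20 to 22 it held 12786, 17322 and 16233 ppm without serum and 10384, 11525 and 9997 ppm without amino acids, against 36748, 45609 and 38835 ppm in log phase. Its log2 ratio to log phase averaged -1.18 ± 0.36 without serum and -1.57 ± 0.52 without amino acids (SD over the 5 fraction numbers, a spread along 1 gradient). In fractions 8 to 12 the order was turned: EEF1A1 made up 27471 to 55044 ppm without serum and 27540 to 45975 without amino acids, against 8112 to 15345 in log phase. The mean log2 ratios there were 1.78 ± 0.29 and 1.63 ± 0.23, or 3.44-fold and 3.09-fold.

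EEF2 differed most in fractions 8 to 12. It made up 1903 to 4292 ppm without serum and 1759 to 2605 without amino acids, against 203 to 618 in log phase. The ranges did not overlap, and the mean log2 ratios were 2.85 ± 0.26 (7.22-fold) and 2.46 ± 0.66 (5.51-fold). In fractions 18 to 22 EEF2 ran from 1593 to 3681 without serum and from 1336 to 2078 without amino acids, against 1334 to 6517 in log phase. These ranges overlapped, and the mean log2 ratios were -0.08 ± 0.47 and -0.60 ± 0.83. In fraction 22 it stood at 3681 ppm without serum and 2078 without amino acids, against 6517 in log phase. In fractions 13 to 17 its mean log2 ratios were 1.36 ± 0.41 and 1.91 ± 0.46.

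EEF1D was likewise higher at the low-numbered side of the peak. Its abundance in fractions 8 to 12 was 395 to 643 ppm without serum and 487 to 637 without amino acids, against 144 to 175 in log phase, which gave mean log2 ratios of 1.71 ± 0.17 and 1.82 ± 0.22. In log phase it climbed along the gradient, from 144 ppm in fraction 8 to 947 in fraction 20, a span of 6.55-fold. In the starved gradients the span over all fractions was 2.12-fold without serum and 1.82-fold without amino acids; its abundance was thus more even along them. Its mean log2 ratios were 1.19 ± 0.41 and 1.42 ± 0.57 in fractions 13 to 17, and in fractions 18 to 22 they were -0.17 ± 0.29 and -0.60 ± 0.47.

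EEF1G made up 5876 to 10618 ppm in fractions 8 to 12 without serum and 6486 to 8832 without amino acids, against 1996 to 5312 in log phase. The mean log2 ratios were 1.13 ± 0.50 and 1.00 ± 0.42. At fractions 18 to 22 it ran from 3288 to 4391 without serum and from 2644 to 3009 without amino acids, against 3521 to 9995 in log phase, with mean log2 ratios of -0.68 ± 0.46 and -1.10 ± 0.70. Without amino acids alone did its range in this window lie wholly below that of log phase.

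EEF1B2 stood apart. In fractions 8 to 12 it made up 1956 to 2986 ppm without serum and 2218 to 3873 without amino acids, against 1504 to 2401 in log phase, and the ranges overlapped. Its mean log2 ratios were 0.44 ± 0.21 and 0.61 ± 0.53. Over fractions 18 to 22 they were -0.38 ± 0.05 and -0.13 ± 0.29. In all 3 gradients the share of EEF1B2 was highest in or below fraction 10, at 3503 ppm in fraction 4 without serum, 3873 in fraction 10 without amino acids and 2833 in fraction 4 in log phase, and lowest in fraction 22, at 740, 773 and 976 ppm.

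A size rule for these windows asked for a mean log2 ratio of at least 1 and for the same sign in all 5 fractions. In fractions 8 to 12 without serum 4 of 5 members were higher by this rule, against 1.58% of tested genes, and without amino acids 3 of 5 were (EEF1A1, EEF1D and EEF2), against 1.19%. Lower there were 0 of 5 members in both, against 12.3% and 30.2% of genes, and the median gene stood at -0.38 and -0.70. EEF1G was at 1.13 without serum, or 0.98 without fraction 12, and just below 1 without amino acids, or between 1.03 and 1.08 without fraction 8, 9 or 10. EEF1A1 was lower in fractions 18 to 22 in both starvations, as were 0.386% of genes without serum and 1.15% without amino acids. EEF1G was lower as well without amino acids, but stood at -0.97 without fraction 21 and at -0.90 without fraction 22. Higher there were 0 of 5 members, against 4.47% and 6.43% of genes, and the median gene stood at 0.20 and 0.22. When log2 ratios were centred on the median gene of each fraction, all 5 members were higher in fractions 8 to 12 without amino acids. EEF1B2 then stood at 1.31, and 5.01% of genes were higher. Without serum the same centring gave 4 of 5 members, against 3.55% of genes. With ERCC spike-in RNA as the reference, 5 of 5 members were lower in fractions 18 to 22 without amino acids and 3 of 5 without serum, but so were 38.1% and 10.9% of all genes.

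**Figure D3:**
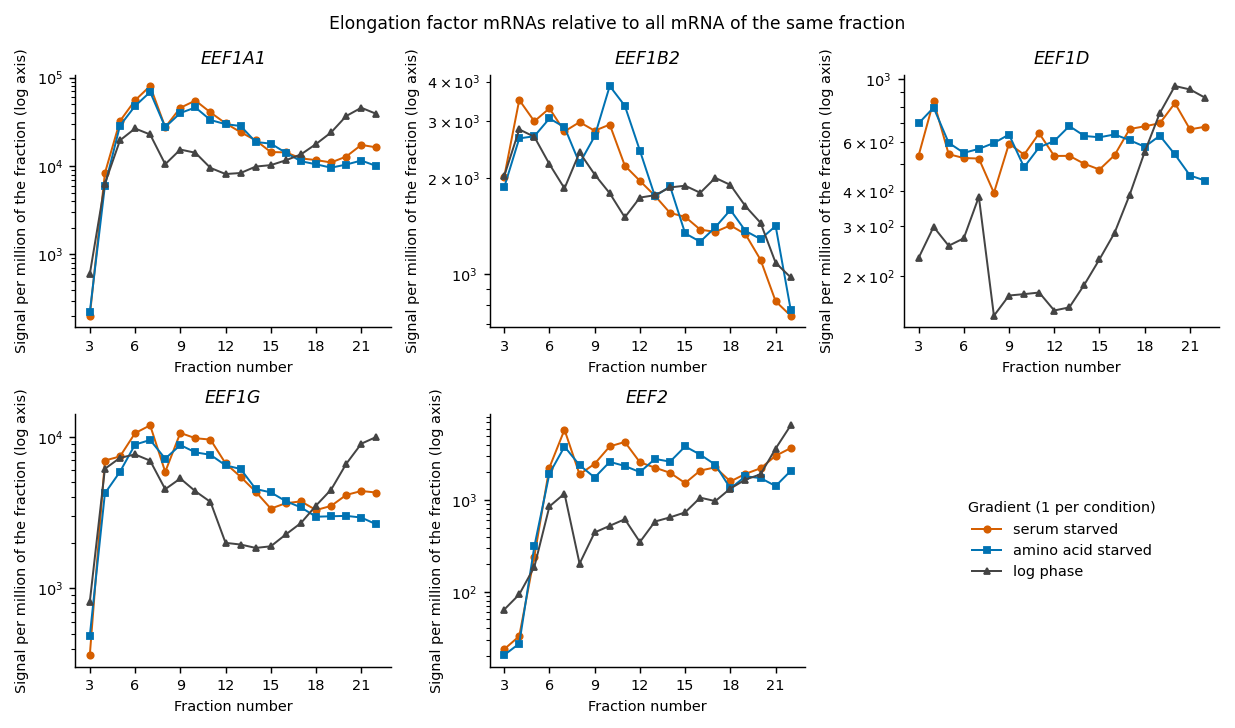
Signal of each mRNA in ppm of the gene signal of the same fraction (y axis, log scale) along fractions 3 to 22 (x axis) of the serum starved, amino acid starved and log phase gradients. For EEF1A1, EEF1D, EEF1G and EEF2 the starved curves lie above log phase in fractions 8 to 12, and those of EEF1A1 lie below it in all of fractions 18 to 22, while the serum starved curve of EEF1B2 lies above log phase by at most 0.71 (log2) in fractions 8 to 12 and below it in fractions 18 to 22, and the amino acid starved one crosses it in both windows.

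**Figure D4:**
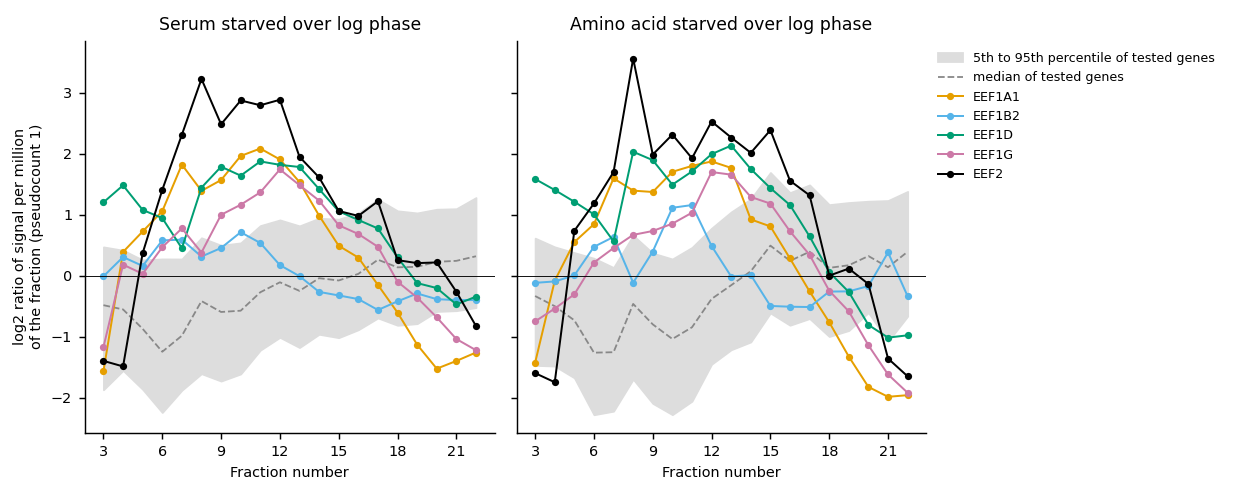
Log2 ratio of abundance within the fraction in ppm (pseudocount 1), serum starved over log phase on the left and amino acid starved over log phase on the right, for each fraction number (x axis). Lines with points are the 5 mRNAs, the grey band spans the 5th to 95th percentile of tested genes and the dashed line is their median. EEF2 reaches 3.23 and 3.56 in fraction 8, and EEF1A1 stands at -1.52 in fraction 20 without serum and -1.98 in fraction 21 without amino acids.

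Fractions 3 to 7 held 2.22% to 8.22% of a member's signal in the starved gradients and at most 0.439% in log phase. Each of these fractions also held less of all gene signal in log phase. Fraction 3 held 0.774% of it without serum and 0.703% without amino acids, against 0.0654% in log phase. Fraction 7 held 0.536% and 0.506%, against 0.0174%. With equal fraction totals the members held 18.2% to 36.1% there without serum and 15.1% to 32.2% without amino acids. In log phase they then held 10.1% to 31.0%, so these ranges overlapped. Within fractions 3 to 7 the mRNAs behaved differently. EEF2 was nearly missing from fraction 3, at 23.6 ppm without serum and 20.4 without amino acids, against 63.8 in log phase, and reached 5835, 3818 and 1175 ppm in fraction 7. EEF1A1 climbed too, from 202, 223 and 600 ppm in fraction 3 to 80313, 68709 and 22722 in fraction 7, but earlier. In fraction 4 it already held 8295, 5982 and 6331 ppm, where EEF2 held 32.8, 27.2 and 93.7. In log phase EEF1A1 was higher in fraction 6, at 26571 ppm, than in fraction 7. EEF1G climbed from 363, 486 and 817 ppm in fraction 3 to 6980, 4238 and 6155 in fraction 4 and 11921, 9536 and 6962 in fraction 7. EEF1B2 and EEF1D showed no such climb: EEF1B2 held 2009, 1866 and 2023 ppm in fraction 3, close to its 2793, 2880 and 1853 in fraction 7, in the order serum starved, amino acid starved and log phase.

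Ratios between members in the same fraction are free of any scale of the fraction. For fractions 18 to 22 the median EEF2 signal was 175 per 1000 of EEF1A1 signal without serum and 167 without amino acids, against 75.3 in log phase, with ranges of 137 to 227 and 123 to 208, against 51.9 to 168. The median EEF1D signal was 58.4 and 52.1 per 1000, against 25.8 in log phase, with ranges of 38.3 to 64.4 and 39.5 to 65.9 that lay above the 20.2 to 31.6 of log phase. EEF1B2 had 86.7 and 124 per 1000, against 39.3 in log phase, and EEF1G 282 and 284, against 198 in log phase. All of these medians were higher in the starved gradients, but only for EEF1D did the ranges not overlap. In fractions 8 to 12 EEF1B2 had 61.7 and 81.8 per 1000, against 158 in log phase, without overlap of the ranges, and EEF1G 220 and 222, against 346 in log phase, with overlap without amino acids. EEF1D had 14.4 and 17.3 per 1000, against 13.8 in log phase, with overlapping ranges. EEF2 went the other way, with 69.8 and 67.8 per 1000, against 37.1 in log phase, also with overlapping ranges.

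**Figure D5:**
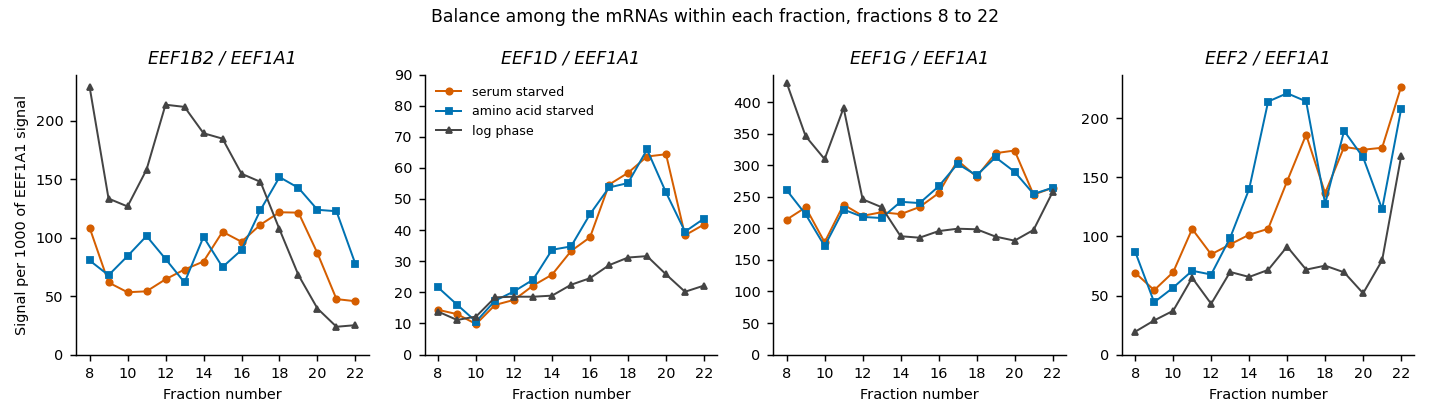
Signal of EEF1B2, EEF1D, EEF1G and EEF2 per 1000 of EEF1A1 signal in the same fraction (y axis, starting at 0) along fractions 8 to 22 (x axis) of the serum starved, amino acid starved and log phase gradients. The starved curves of EEF1D rise to 64.4 in fraction 20 and 65.9 in fraction 19, against at most 31.6 in log phase, and the starved curves of EEF1B2 lie below log phase up to fraction 17 and above it from fraction 18.

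The starvations were also set against each other. By the shift rule 0 of 5 members differed between amino acid and serum starvation, where 1.06% of genes were lower and 2.01% higher. EEF1A1, EEF1B2, EEF1G and EEF2 had shifts between 0.15 and 0.26, of which those of EEF1A1, EEF1G and EEF2 turned negative with equal fraction totals (-0.18, -0.09 and -0.11). EEF1D stood at -0.65 (odd -0.43, even -0.92), and it stood at -0.91 with equal fraction totals and at -1.12 before centring, where it met the rule. The mean log2 ratio in fractions 18 to 22 of amino acid over serum starved abundance was -0.39 ± 0.24 for EEF1A1, -0.43 ± 0.22 for EEF1D, -0.42 ± 0.23 for EEF1G and -0.52 ± 0.42 for EEF2, each negative in all 5 fractions but short of the size rule. EEF1B2 stood at 0.25 ± 0.31 and was positive in all 5. By the window rule 0 of 5 members differed in either window, where 0.184% of genes were lower and 0.349% higher in fractions 18 to 22, and 1.18% and 0.0459% in fractions 8 to 12.

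Levels were compared as signal summed over the fractions, in ppm of the gradient's total. In such bulk samples fewer cells with a transcript and less RNA per cell cannot be told apart. EEF1A1 stood at 28021 without serum and 27552 without amino acids, against 18388 in log phase; its rank among all genes was 2 without serum, 3 without amino acids and 3 in log phase. EEF1G stood at 6389 and 6097, against 3757 in log phase, and EEF2 at 2376 and 2253, against 1262 in log phase. EEF1B2 had 2064 and 2354, against 1764 in log phase, and EEF1D 588 and 595, against 468 in log phase. The log2 ratios (pseudocount 1) lay between 0.23 for EEF1B2 and 0.91 for EEF2 without serum, and between 0.34 for EEF1D and 0.84 for EEF2 without amino acids. They were positive for all 5 members in both starvations, also with equal fraction totals, where they lay between 0.11 and 0.97.

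Relative to the median gene, which had a log2 ratio of -0.43 without serum and -0.59 without amino acids, 3 of 5 members were higher by at least 1 without serum (EEF2 1.34, EEF1G 1.20 and EEF1A1 1.04) and 4 of 5 without amino acids (EEF2 1.42, EEF1G 1.29, EEF1A1 1.17 and EEF1B2 1.00), each with 0.5 or more from odd and even fractions. Among all genes 3.06% and 4.96% were higher by that rule, and 0.903% and 2.84% were lower, against 0 of 5 members. EEF1B2 without amino acids lay at the edge of the rule and stood at 0.88 with no filter on low values and at 0.72 without fraction 10. Before centring, or with spike-in scaling, 0 of 5 members met it in either starvation. Equal fraction totals left EEF2 at 1.15 without serum and 0 of 5 without amino acids. Without fraction 9 only 1 of 5 met it in either starvation, and without fraction 10 only 2 of 5 without amino acids. Between the starvations 0 of 5 met the rule, against 0.0401% of genes lower and 0.187% higher.

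Other genes of translation gave a background for these shifts. Large ribosomal subunit protein mRNAs had a median shift of -3.01 without serum and -3.22 without amino acids, small subunit mRNAs -3.05 and -3.08, and the members -3.83 and -3.86. Counts past the shift rule were 46 and 45 of 47 for the large subunit and 32 of 32 for the small subunit in both. Of 24 other TOP mRNAs, 20 were lower in both, with medians of -2.72 and -2.84. The lowest and highest shifts were those of RPL5 and RPL41 in the large subunit (-4.62 and -0.26 without serum, -4.77 and 0.42 without amino acids), with the abundant RPL13 at -3.17 and -3.23. In the small subunit they were RPS6 at -4.19 and FAU at -1.33 without serum, and RPS6 at -4.30 and RPS15 at -1.52 without amino acids, with the abundant RPS29 at -2.33 and -1.73. Among other TOP mRNAs they were PABPC1 at -4.81 and LARP1 at -0.07 without serum, and RACK1 at -5.10 and CCNI at -0.07 without amino acids, with the abundant TPT1 at -4.38 and -3.94. The values of the ribosomal lists in fractions 8 to 12 were closer to those of EEF1B2 than to the median member. In fractions 8 to 12 without serum, 8 of 47 large subunit and 4 of 32 small subunit mRNAs were higher by the window rule, with median log2 ratios of 0.33 and 0.18, against 4 of 5 members and a median of 1.71. Without amino acids the counts were 11 of 47 and 6 of 32, with medians of 0.49 and 0.32, against 3 of 5 members and 1.63. The other TOP mRNAs lay between, with 12 and 11 of 24 higher and medians of 1.06 and 0.78. At fractions 18 to 22 the ribosomal lists had medians between -0.43 and -0.36, with 0 to 2 members lower by the rule.

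Most elongation genes outside the 5 did not meet the shift rule. Of 12 other elongation genes, 1 was lower and 1 higher without serum, with a median of 0.28, and 1 and 2 without amino acids, with a median of 0.33. The lower one was EEF1A2, a tissue-restricted paralog of EEF1A1, at -1.91 and -2.34. Its mean signal was 299 and 312, against 772 in log phase. That of EEF1A1 was 228549 and 252470, against 359091. How reads shared between the 2 were assigned is unknown, so the values of EEF1A2 are uncertain. The most abundant of the 12, EIF5A, a factor that helps ribosomes through difficult peptide bonds, was higher at 1.01 and 1.15. Its values are uncertain because the near-copy EIF5AL1 was listed too, higher at 1.22 without amino acids. EEF2K, the kinase that inactivates eEF2, stood at 0.73 and 0.36, and VARS, the valyl-tRNA synthetase bound to eEF1B, at 0.42 and 0.04, all short of the rule.

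Enzymes that modify the factors had a median of -0.02 without serum and 0.05 without amino acids. Of these 14, DPH5, an enzyme of diphthamide synthesis on eEF2, was the only one lower, at -3.84 and -3.69, and DOHH, which completes hypusine on eIF5A, was highest at 1.53 and 1.46. Higher by the rule were 1 of 14 without serum (DOHH) and 3 of 14 without amino acids (DOHH, EEF1AKMT1 at 1.40 and DPH2 at 1.09). The most abundant, DHPS, stood at 0.46 and -0.02. Mitochondrial elongation and release factors had medians of -0.27 and -0.29, with 2 of 8 lower in both, MTRF1L at -2.34 and -1.93 and MRRF at -1.33 and -1.24. Their most abundant member TUFM, the mitochondrial counterpart of eEF1A, stood at -0.35 and -0.72, and TSFM, its exchange factor, was highest at 0.38 and 0.60. Termination and recycling factors had medians of 0.30 and 0.27, with 2 of 8 lower in both: the release factor GSPT1 at -1.88 and -1.89, and its paralog GSPT2 at -2.31 and -1.57. ETF1, which reads stop codons, was the most abundant at 0.26 and 0.25, and the ribosome rescue factor PELO was highest at 0.99 and 0.55. Among 25 initiation factors without a listed TOP tract, 2 were lower in both, and 5 and 6 were higher, with medians of 0.21 and -0.10. Their most abundant member EIF4A1, an RNA helicase, stood at -0.15 and -0.69. The lowest was EIF3C, which has a near-copy and is uncertain, at -1.86 and -2.04. The highest were EIF4A3 without serum, at 1.69, and the cap-binding EIF4E without amino acids, at 2.68.

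The genes most like each member were found by profile overlap, the sum over fractions of the smaller of the shares of signal, averaged over the 3 gradients, in which 1 means identical profiles. It was taken over the 10231 genes whose mean signal reached 10 in every gradient. The nearest to EEF1A1 outside the 5 was RPL4 at 0.947, followed by RPL5 at 0.928 and EIF3L at 0.919, against 0.570 for the median gene. RPL4 was also the nearest to EEF1G at 0.950, followed by SLC25A6 at 0.938 and NOP53 at 0.935. For EEF1B2 the nearest were the ribosomal protein mRNAs RPL9 at 0.961 and RPL27 at 0.946. For EEF1D they were SLC25A3 at 0.933, PROCR at 0.921 and RPL3 at 0.919, and for EEF2 QARS at 0.917, MAN2B1 at 0.912 and EIF2S3 at 0.902. Among the members, EEF1A1 and EEF1G overlapped most at 0.939, EEF2 and EEF1D had 0.869, and EEF1B2 and EEF1D least at 0.778. EEF1B2 was further from EEF1A1 in log phase, at 0.733, than in the starved gradients, at 0.855 without serum and 0.915 without amino acids.

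EEF1A1 has many near-identical processed pseudogenes in the human genome, and how reads shared with them or with EEF1A2 were assigned is unknown. Its level, its positions and the ratios to it are therefore uncertain. Read assignment was not compared among the members.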

How the data were processed

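Poly(A)-selected RNA of 60 gradient fractions (20 per condition) was sequenced as stranded libraries, per the labels' protocols. The 3 lysate libraries were not analysed here. Reads were processed with kallisto 0.44.0 and sleuth 0.29.0 on hg38, per the submitters' processing notes. The authors deposited 1 signal value per gene symbol and fraction, named TPM. Its columns carry a scale and a gene filter that are not stated.

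The 29 ERCC rows and 1 luciferase row were kept out of gene totals. Tested genes had a mean signal of at least 5 and at least 15 fractions above 0 in every gradient. The depth of each library is unknown, so precision could not be stated. Levels were examined at 5 ppm in either gradient. Size rules replaced tests because there is 1 gradient per condition. The procedures were run on data simulated from the log phase profiles with added random noise. Those data did not model the unknown fraction scales or variation between gradients, so they cannot show how reliable the rules are here. Computation used Python 3.11.15, numpy 2.4.6, pandas 2.3.3 and matplotlib 3.10.9. Coordinates and windows come from RefSeq GRCh38.p14 tables. Named genes are the 5 members, the most abundant and extreme genes of each list, and the 3 nearest profiles per member, of which 1 is not reported here. EEF2K, VARS, EIF5AL1, GSPT1, MRRF, EEF1AKMT1 and DPH2 were named after their values were seen. Members and lists were chosen with earlier results of these data known. Alternatives covered fraction scale, centring, weights, pseudocount, filters and fractions left out.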

Additional observations from a re-analysis of the deposited data

How the results depend on the processing

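Leaving out any single fraction kept all 5 members past the shift rule in both starvations, and so did equal fraction totals, spike-in scaling, no centring, no outermost fractions and no filter on low values. Without centring, however, 69.2% and 86.4% of all tested genes were lower, so 5 of 5 there says little about the members. The shares were 13.1% and 16% with equal totals and 7.97% and 10% with spike-in scaling. They were 9.75% and 9.42% without the outermost fractions, and 10% and 9.65% with no filter. With log2 signal weights 0 of 5 met the shift rule, with shifts of 0.10 (EEF1A1), 0.028 (EEF1B2) and 0.14 (EEF1G) without serum and 0.14, 0.14 and 0.16 without amino acids. That summary called 54 and 71 genes lower in all, against 1074 and 1042, and no centring called 7538 and 9407. Equal totals called 1318 and 1419 genes higher, against 621 and 745, and 1737 lower without amino acids. Log2 weights on equal totals, added after seeing the data, gave 1 of 5 members without serum and 3 of 5 without amino acids. There 0.775% and 1.83% of the 7223 genes then tested were lower. Between the starvations 1 of 5 met the rule without centring, where 844 genes were lower in all, against 115 with centring. Other alternatives added later were equal totals without fraction 3, without fractions 3 to 7 (5 of 5 in both starvations each) and without centring (5 and 4). Of all genes, 12.7% and 15.9% were lower in the 1st of these and 8.86% and 13.7% in the 2nd. Without centring 1.56% and 1.72% were lower.

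By the level rule, equal totals gave 1 member without serum and 0 without amino acids, while spike-in scaling and no centring gave 0 in both. Equal totals called 2.01% and 2.36% of all genes higher. Without single fractions the counts ran from 1 to 3 without serum and from 1 to 5 without amino acids. Leaving out fraction 9 gave 1 in both, against 2.84% and 4.55% of genes higher. Leaving out fraction 10 gave 2 without amino acids, against 4.14% of genes. By the window rule in fractions 18 to 22, the spike-in reference gave 3 members without serum and 5 without amino acids, against 10.9% and 38.1% of all genes lower. A minimum of 0.5 gave 2 members without serum, against 3.73% of genes lower. Between the starvations each of these settings gave 1 member, EEF2, at -1.05 and -0.52. The share of all genes past those settings between the starvations is not reported here, so no trait of EEF2 is read from them. Without fraction 21 or 22 the rule gave 1 member without amino acids, against 0.854% and 1.7% of genes lower. In fractions 8 to 12 without amino acids, centring on the median gene and the spike-in reference each gave 5, where 546 and 364 genes were higher in all, against 130. Without serum those were 387 and 657, against 172. In fractions 18 to 22 they called 110 and 1187 genes lower without serum, against 42, and 329 and 4154 without amino acids, against 125. The cause of these differences was not tested. No paired analysis was possible because each condition has 1 gradient. Depth is unknown, so its effect could not be measured.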
